A study of Oryza sativa with 12 samples.

Results

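The phytocassane biosynthesis cluster is a group of neighbouring genes on rice chromosome 2 that encode enzymes of 1 diterpenoid pathway. The genes were taken by identifier and not by their values: CPS2 (Os02g0571100), KSL7 (Os02g0570400), CYP76M8 (Os02g0569400), CYP76M7 (Os02g0569900), CYP71Z6 (Os02g0570500) and CYP71Z7 (Os02g0570700). Of these 6 genes, 5 were among the 26611 genes listed in the deposited tables. CYP76M8, CYP76M7 and KSL7 were listed at both NaCl levels, CPS2 and CYP71Z7 were listed at 150 mM NaCl only, and CYP71Z6 was listed at neither level.

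Roots were sampled from seedlings grown for 7 days and then kept for 24 h in basal medium with 150 or 0 mM NaCl. The groups were OE1 at 150 mM NaCl, TNG67 at 150 mM NaCl, OE1 at 0 mM NaCl and TNG67 at 0 mM NaCl, with 3 RNA-seq libraries in each. TNG67 (Tainung 67) is the wild-type cultivar, and OE1 is a transgenic line in that background that carries 35Sp::OsERF106MZ, an ethylene response factor gene behind the constitutive cauliflower mosaic virus 35S promoter. OE1 was the only overexpressing line sequenced, so a property of the line and an effect of the transgene cannot be told apart. The sample labels give roots and the study's methods give belowground parts pooled from several seedlings per replicate, while the record's own design text names terrestrial parts.

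Phytocassanes are labdane-related diterpenoids that rice makes as phytoalexins, that is, antimicrobial compounds induced by infection or elicitors, and as compounds released by roots. Geranylgeranyl diphosphate from the plastid is cyclised to ent-copalyl diphosphate by CPS2, a class II diterpene cyclase, and KSL7, a class I diterpene synthase, turns that intermediate into ent-cassadiene. Cytochrome P450 enzymes then oxidise the hydrocarbon. CYP76M7 and CYP76M8 hydroxylate its C ring, CYP71Z7 hydroxylates its A ring, and CYP71Z6 is known mainly for its action on ent-isokaurene. Such gene clusters are known in rice for the pathogen-induced expression of their members.

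Values are normalized read counts, which are the reads of a gene divided by a size factor of the library. They were not divided by gene length, so levels are compared between libraries and never between genes. Reads recovered from these values summed to between 16326661 and 22426883 per library over the listed genes. OsERF106MZ (Os08g0537900) had normalized counts of 9934 ± 531 in OE1 and 723 ± 54.6 in TNG67 at 150 mM NaCl, and of 9840 ± 615 in OE1 and 876 ± 112 in TNG67 at 0 mM NaCl (SD, n = 3 each). A list of 4 root markers had 3 members listed at 150 mM NaCl, with sums of 20081 to 24723 in OE1 libraries and 10959 to 12917 in TNG67 libraries, and 4 members listed at 0 mM NaCl, with sums of 63382 to 65011 in OE1 and 52292 to 63533 in TNG67. A list of 5 green leaf markers had 4 members listed at 150 mM NaCl, with sums of 131.91 to 252.05 in OE1 and 103.18 to 172.68 in TNG67, and 5 listed at 0 mM NaCl, with sums of 1730.5 to 2900.2 in OE1 and 4671.5 to 6513.6 in TNG67. The green leaf marker RBCS-A (Os12g0291100) was at 0 in TNG67 at 150 mM NaCl replicate 2. The part of these marker differences in the results on the cluster was not tested.

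Under 150 mM NaCl every listed gene of the cluster was lower in each OE1 library than in each TNG67 library, as were 22.7% of all 25953 genes listed at that level. The OE1 mean was between 8.12% and 19.9% of the TNG67 mean over the 5 genes. The 3 members listed at both NaCl levels stood higher in every 150 mM NaCl library than in every 0 mM NaCl library of the same genotype, as did 25.3% of the genes listed at both levels in OE1 and 30.8% in TNG67. In bulk roots, fewer cells that express a gene and less RNA per cell cannot be told apart.

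CPS2 opens the pathway. At 150 mM NaCl its normalized counts were 18.99, 133.6 and 374.7 in OE1 replicates 1, 2 and 3, against 1161, 2385 and 1292 in TNG67 replicates 1, 2 and 3. The OE1 libraries differed from each other 19.7-fold, the TNG67 libraries were within 2.05-fold of each other, and the genotypes did not overlap. The mean was 176 ± 182 in OE1 and 1613 ± 672 in TNG67 (SD, n = 3 each), or 9.18-fold lower in OE1. CPS2 was not among the genes listed at 0 mM NaCl, where the lowest mean over the 6 libraries of any listed gene was 2.51, so its salt response was not measured here.

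KSL7 catalyses the next cyclisation. In roots at 150 mM NaCl it had normalized counts of 245.8, 393.6 and 1425 in OE1 replicates 1, 2 and 3, against 5464, 10217 and 5348 in TNG67 replicates 1, 2 and 3. At 0 mM NaCl it had 6.62, 3.03 and 6.26 in OE1 and 12.3, 21.2 and 5.36 in TNG67. The highest OE1 library under salt, replicate 3, was still below every TNG67 library under salt, whereas the genotypes overlapped at 0 mM NaCl. Without salt these values stood for 3 to 6 reads per OE1 library and 5 to 20 reads per TNG67 library, so fold changes against this level carry a large counting error. The KSL7 means were 688 ± 642 in OE1 and 7010 ± 2778 in TNG67 at 150 mM NaCl, and 5.30 ± 1.98 in OE1 and 13.0 ± 7.94 in TNG67 at 0 mM NaCl (SD, n = 3 each). Ranked by level, only the unstressed groups overlapped with each other.

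CYP76M7 encodes a hydroxylase that acts on ent-cassadiene. In roots at 150 mM NaCl it had 380.8, 374.6 and 855.3 normalized counts in OE1, against 3758, 6238 and 4310 in TNG67. Without salt it had 23.2, 11.1 and 24.0 in OE1, against 36.9, 39.2 and 53.6 in TNG67. Both NaCl levels therefore separated the genotypes for this gene, by a wider margin under salt. The means were 537 ± 276 in OE1 and 4769 ± 1302 in TNG67 at 150 mM NaCl, and 19.4 ± 7.22 in OE1 and 43.3 ± 9.05 in TNG67 at 0 mM NaCl (SD, n = 3 each).

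CYP76M8 encodes a close paralog of CYP76M7 that also acts on the intermediates of other rice diterpenoids. In roots at 150 mM NaCl it had 152.9, 215.9 and 344.2 normalized counts in OE1, against 1131, 1272 and 1181 in TNG67. Without salt it had 146.8, 108.0 and 112.7 in OE1 and 117.5, 141.0 and 124.4 in TNG67, which overlapped. The means were 238 ± 97.5 in OE1 and 1194 ± 71.3 in TNG67 at 150 mM NaCl, and 122 ± 21.2 in OE1 and 128 ± 12.1 in TNG67 at 0 mM NaCl (SD, n = 3 each). The lowest OE1 library under salt, at 152.9, lay just above the highest unstressed OE1 library, at 146.8. Because CYP76M7 and CYP76M8 are similar in sequence and how reads shared between paralogs were counted is not given in the sources used here, their split is uncertain.

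CYP71Z7 encodes the A-ring hydroxylase. At 150 mM NaCl it had 10.99, 20.08 and 30.49 normalized counts in OE1, against 191.9, 353.5 and 212.7 in TNG67, with means of 20.5 ± 9.76 in OE1 and 253 ± 87.9 in TNG67 (SD, n = 3 each). This is 12.3-fold lower in OE1, on 11 to 38 reads per OE1 library, and the genotypes did not overlap. CYP71Z7 was not listed at 0 mM NaCl, and its neighbour and paralog CYP71Z6 was not listed at either NaCl level, so reads shared by these paralogs cannot be traced.

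**Figure D1:**
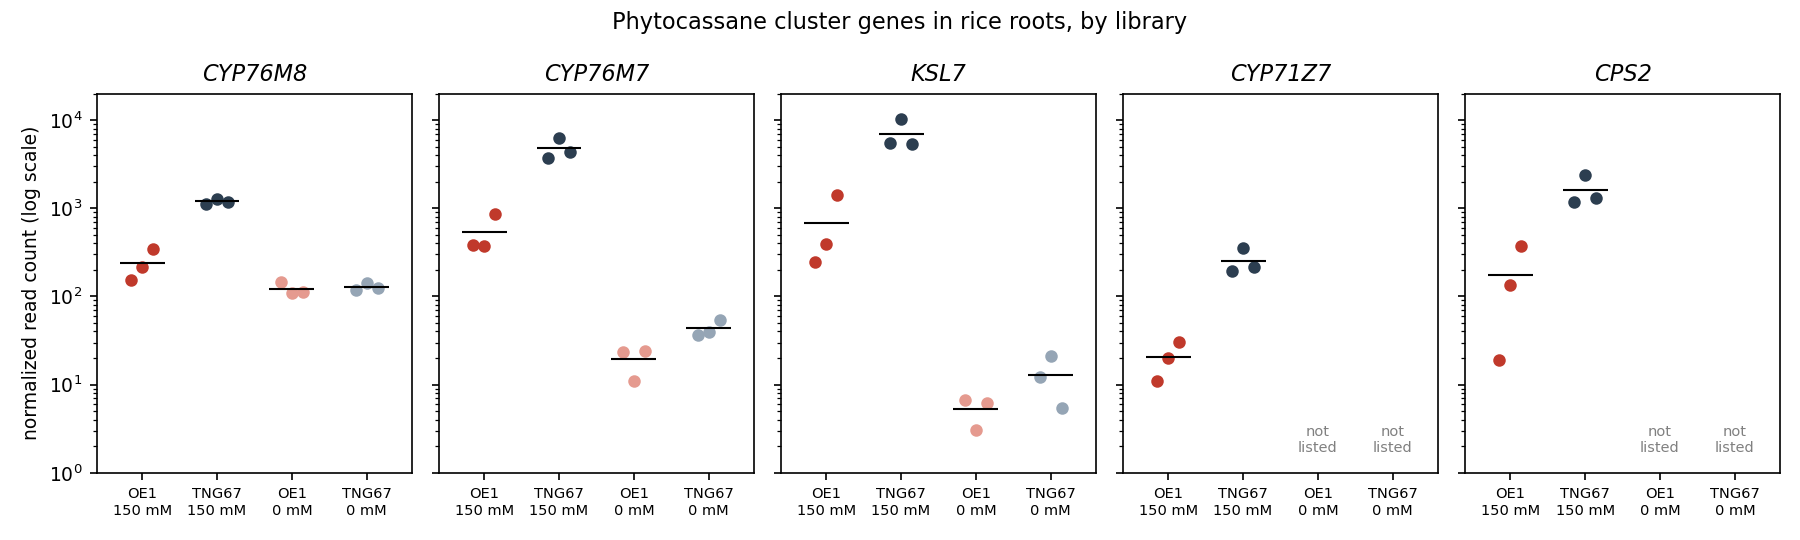
Normalized read count (log axis) of the 5 listed cluster genes in each library (points), with the group mean as a horizontal line, for OE1 and TNG67 at 150 and 0 mM NaCl. In each panel the 3 OE1 points at 150 mM NaCl lie below the 3 TNG67 points at 150 mM NaCl, and CYP71Z7 and CPS2 were not listed at 0 mM NaCl.

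The first comparison asked what overexpression of OsERF106MZ was accompanied by under salt. Differences were tested with limma on log2(normalized count + 1) across the 24922 genes listed at both NaCl levels and all 12 libraries, with Benjamini-Hochberg adjusted p-values, and a gene was called where the adjusted p was below 0.05 and the log2 fold change passed 1 in either direction. At 150 mM NaCl 3 of 3 testable members were lower in OE1, where 3.49% of all tested genes were called lower. CYP76M8 had a log2 fold change of -2.40 (SE 0.23, limma adjusted p = 8.78e-06), CYP76M7 of -3.23 (SE 0.39, limma adjusted p = 0.000276) and KSL7 of -3.69 (SE 0.70, limma adjusted p = 0.0051). The median log2 fold change of all tested genes was within 0.02 of 0 in each comparison.

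The members listed only at 150 mM NaCl were tested with limma on the 6 libraries and 25953 genes of that level, and 4.12% of these genes were called lower. CYP71Z7 was lower in OE1 by this fit, with a log2 fold change of -3.61 (SE 0.36, limma adjusted p = 0.000111). CPS2 had the widest spread between OE1 libraries and was not called, with a log2 fold change of -3.93 (SE 1.25, limma adjusted p = 0.102). DESeq2 on recovered reads called CPS2 lower, with a log2 fold change of -3.18 (DESeq2 adjusted p = 0.0148). Without OE1 at 150 mM NaCl replicate 1, the library with the lowest CPS2 value, the limma log2 fold change was -2.77 (adjusted p = 0.0896). In all, 4 of the 5 listed members were called lower by the 6-library fit. KSL7 was among them (limma adjusted p = 0.0387), but it was not called on these 6 libraries by edgeR on recovered reads (adjusted p = 0.0583), nor by limma when any 1 library except OE1 replicate 3 was left out, where the adjusted p reached 0.12. An exact two-sided permutation test of 3 against 3 libraries gave p = 0.1 for each of the 5, the smallest value it can give.

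At 0 mM NaCl 0 of 3 members were called between OE1 and TNG67 by limma, where 2.89% of tested genes were called lower and 2.37% higher. CYP76M7 had a log2 fold change of -1.17 (SE 0.39, limma adjusted p = 0.061), KSL7 of -1.03 (SE 0.70, limma adjusted p = 0.349) and CYP76M8 of -0.07 (SE 0.23, limma adjusted p = 0.871). Only CYP76M7 did not overlap between genotypes at 0 mM NaCl, as 21.4% of all tested genes did not with OE1 below TNG67. CYP76M7 crossed the threshold in limma on the 6 libraries of 0 mM NaCl (adjusted p = 0.0158) and without OE1 at 150 mM NaCl replicate 3 (adjusted p = 0.0127), so its difference at 0 mM NaCl sat near the threshold. CYP76M7 was also the 1 member with an unadjusted limma p under 0.05. The share of all tested genes under that limit is not given here. On recovered reads edgeR and DESeq2 called 0 of the 3.

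The salt comparisons asked how the cluster genes stood at 150 against 0 mM NaCl within each genotype. In TNG67 3 of 3 testable members were higher at 150 mM NaCl, where 9.53% of all tested genes were called higher. The ratio of the means at 150 and 0 mM NaCl was 541 for KSL7, 110 for CYP76M7 and 9.36 for CYP76M8, and the log2 fold changes were 9.08 (SE 0.70, limma adjusted p = 4.98e-06), 6.74 (SE 0.39, limma adjusted p = 2.75e-07) and 3.22 (SE 0.23, limma adjusted p = 8.83e-08) in that order. The members thus shared a direction but differed widely in the size of the change.

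In OE1 2 of 3 members were called higher at 150 than at 0 mM NaCl, where 6.66% of all tested genes were. The ratio of the means was 130 for KSL7, 27.6 for CYP76M7 and 1.94 for CYP76M8, so the members stood in the same order as in TNG67. The log2 fold changes were 6.42 for KSL7 (SE 0.70, limma adjusted p = 9.36e-05), 4.68 for CYP76M7 (SE 0.39, limma adjusted p = 7.91e-06) and 0.88 for CYP76M8 (SE 0.23, limma adjusted p = 0.00768). CYP76M8 did not reach the fold threshold, and it passed it without OE1 at 150 mM NaCl replicate 1 (log2 fold change 1.16) or without OE1 at 0 mM NaCl replicate 1 (log2 fold change 1.02).

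How far the genotype effect depended on salt, which equals the difference of the salt responses between OE1 and TNG67, was tested as an interaction and called with an adjusted p below 0.05. By limma 2 of 3 members were called with a more negative OE1 effect under salt, and 6.17% of tested genes were called in that direction. The interaction was -2.33 on the log2 scale for CYP76M8 (SE 0.32, limma adjusted p = 0.00102) and -2.06 for CYP76M7 (SE 0.55, limma adjusted p = 0.0429). For KSL7 it was -2.67 (SE 0.99, limma adjusted p = 0.128), which was not called. The call for CYP76M7 was lost with edgeR on recovered reads (adjusted p = 0.256 with TMM factors) and in 9 of the 12 fits that each left out 1 library, where the adjusted p reached 0.108. KSL7 was called without OE1 at 150 mM NaCl replicate 3 (log2 -3.40, adjusted p = 0.0208). The genotype and salt comparisons share libraries, so their values for the 3 genes are given side by side and not as separate evidence.

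Within groups, the members were also compared library by library. At 150 mM NaCl all 5 members were highest in OE1 replicate 3 among the OE1 libraries and in TNG67 replicate 2 among the TNG67 libraries. Over all genes with a mean of at least 20, OE1 replicate 3 held the highest value for 29.7% and TNG67 replicate 2 for 37.4%. In OE1 4 of the 5 members were lowest in replicate 1, and CYP76M7 was lowest in replicate 2 with a value close to that of replicate 1. The highest OE1 library exceeded the lowest 2.25-fold for CYP76M8, 2.28-fold for CYP76M7, 2.77-fold for CYP71Z7, 5.80-fold for KSL7 and 19.7-fold for CPS2. In TNG67 4 of the 5 were lowest in replicate 1, and KSL7 was lowest in replicate 3. The members thus shared the highest library of each genotype but not always the lowest, with unequal steps between libraries.

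**Figure D2:**
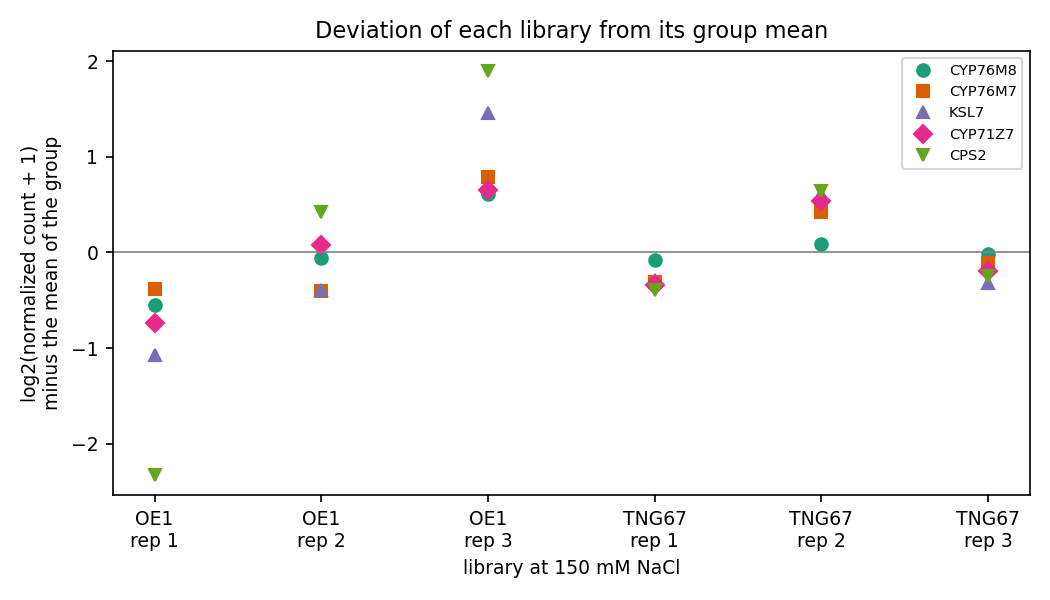
Deviation of log2(normalized count + 1) from the mean of its own group (y axis, log2 units) for the 5 listed cluster genes in the 6 libraries at 150 mM NaCl (x axis). All 5 genes lie above 0 in OE1 replicate 3 and in TNG67 replicate 2, and CPS2 spans the widest range in OE1.

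The deviations of log2(normalized count + 1) from the group mean were correlated for each pair of members, over 12 libraries for members listed at both NaCl levels and over 6 libraries for pairs with CPS2 or CYP71Z7. Pearson's r was positive for all 10 pairs, between 0.635 and 0.961, and Spearman's rho was between 0.636 and 1. None of the 10 pairs passed an exact permutation test within groups after Benjamini-Hochberg adjustment, with adjusted p between 0.139 and 0.306 for r. Over 12 libraries CYP76M8 and KSL7 had r = 0.829 (exact permutation p = 0.017, adjusted p = 0.139) and rho = 0.727 (exact permutation p = 0.044, adjusted p = 0.149). CYP76M8 and CYP76M7 had r = 0.706 (exact permutation p = 0.091) and rho = 0.664 (exact permutation p = 0.0895), and CYP76M7 and KSL7 had r = 0.635 (exact permutation p = 0.0856) and rho = 0.636 (exact permutation p = 0.0764). The 2 libraries in which the first gene of the pair, by identifier, lay farthest from its median were then left out. This gave r between 0.119 and 0.945 over the 10 pairs, and extremes of the second gene were not considered. These positive values rested in part on 1 library, since without OE1 at 150 mM NaCl replicate 3 the 12-library pairs had r = 0.602 for CYP76M8 and KSL7, 0.375 for CYP76M8 and CYP76M7 and 0.297 for CYP76M7 and KSL7. Over 6 libraries the smallest p the test can give is 0.0278, so CPS2 and CYP71Z7 with r = 0.942 (exact permutation p = 0.0278) had reached it.

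The genotype difference under salt was recomputed without the libraries in which the members stood highest, with the 6-library fit for CYP71Z7 and CPS2. These libraries were picked by the members' own values. Leaving out the highest library of a group lowers its mean, so the direction of each shift was fixed in advance and only its size is informative. Without OE1 replicate 3 the log2 fold changes were -2.71 for CYP76M8, -3.62 for CYP76M7, -4.42 for KSL7, -3.94 for CYP71Z7 and -4.88 for CPS2. Without TNG67 replicate 2 they were -2.36 for CYP76M8, -3.02 for CYP76M7, -3.38 for KSL7, -3.35 for CYP71Z7 and -3.61 for CPS2. The members listed at both NaCl levels were called lower in OE1 in each of these fits over the remaining 11 libraries. Over the 6-library fits that each left out 1 library, CYP71Z7 kept its call (limma adjusted p of 0.00519 or less). CPS2 was called in none of them (limma adjusted p between 0.0762 and 0.239).

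The neighbouring genes of the same families were examined next. By the order of the RefSeq annotation, which is of another genome build and was used for names and neighbours only, CYP76M5 (Os02g0569000) precedes CYP76M8 and CYP76M6 (Os02g0571900) lies beyond CPS2. CYP76M5, a P450 of the same family, had 78.0 ± 49.8 in OE1 and 651 ± 73.2 in TNG67 at 150 mM NaCl, and 6.30 ± 0.97 in OE1 and 15.2 ± 4.28 in TNG67 at 0 mM NaCl (normalized counts, SD, n = 3 each). Limma called it lower in OE1 at 150 mM NaCl (log2 fold change -3.22, adjusted p = 2.43e-06) and at 0 mM NaCl (-1.13, adjusted p = 0.0211). On recovered reads, edgeR with TMM factors and DESeq2 called it lower at 150 mM NaCl but not at 0 mM NaCl. Without salt it had 5 to 7 reads per OE1 library and 10 to 17 per TNG67 library. CYP76M5 was higher at 150 than at 0 mM NaCl, with log2 fold changes of 3.27 in OE1 and 5.36 in TNG67. CYP76M6 was listed at 150 mM NaCl only, with 27.3 ± 16.2 in OE1 and 369 ± 65.8 in TNG67 (log2 fold change -3.86, limma adjusted p = 0.000672). A terpene synthase-like gene, Os02g0568700, also listed at 150 mM NaCl only, had 17.4 ± 5.80 in OE1 and 41.1 ± 7.84 in TNG67 (log2 fold change -1.22, limma adjusted p = 0.00711). The other 2 of the 5 family genes of this stretch, Os02g0571300 and Os02g0571800, were listed at neither NaCl level.

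Under salt the flanking genes were called between genotypes at about the share of all tested genes. Of 36 other listed genes with identifiers between Os02g0565000 and Os02g0575000, 34 could be tested over 12 libraries. At 150 mM NaCl 1 was lower in OE1 (Os02g0565500, annotated as a Pto kinase interactor, log2 fold change -1.11) and 1 was higher (Os02g0574000, annotated as a monosaccharide transporter, log2 fold change 1.15), where 3.49% of all tested genes were called lower and 2.44% higher, with a median of -0.12 over the 34. An unadjusted limma p under 0.05 was found for 20 of the 34 in this comparison and for 19 in each salt comparison. The share of all tested genes under that limit is not given here, so these counts do not set the flanking genes apart. Without salt 0 of the 34 were called by limma, edgeR or DESeq2 in either direction, and 4 had an unadjusted limma p under 0.05. Of all tested genes limma called 2.89% lower and 2.37% higher in OE1 without salt. In TNG67 2 were higher at 150 than at 0 mM NaCl and 3 were lower, where 9.53% of all tested genes were called higher and 9.75% lower. In OE1 2 were higher and 4 were lower, where 6.66% of all tested genes were called higher and 5.84% lower. The largest salt increase among them in TNG67 was that of Os02g0567800, an alpha/beta hydrolase gene, with a log2 fold change of 2.26. The hypothetical gene Os02g0570300, whose identifier falls between those of CYP76M7 and KSL7, had normalized counts of 123 ± 6.82 in OE1 and 168 ± 23.3 in TNG67 at 150 mM NaCl, and of 296 ± 15.7 in OE1 and 304 ± 50.0 in TNG67 at 0 mM NaCl (SD, n = 3 each). This gene was lower at 150 than at 0 mM NaCl in OE1 (log2 fold change -1.26), opposite in sign to the cluster genes on either side. Between genotypes at 150 mM NaCl it lay in the direction of the cluster genes, lower in OE1 and short of the fold threshold. That log2 fold change was -0.44 (limma adjusted p = 0.018).

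**Figure D3:**
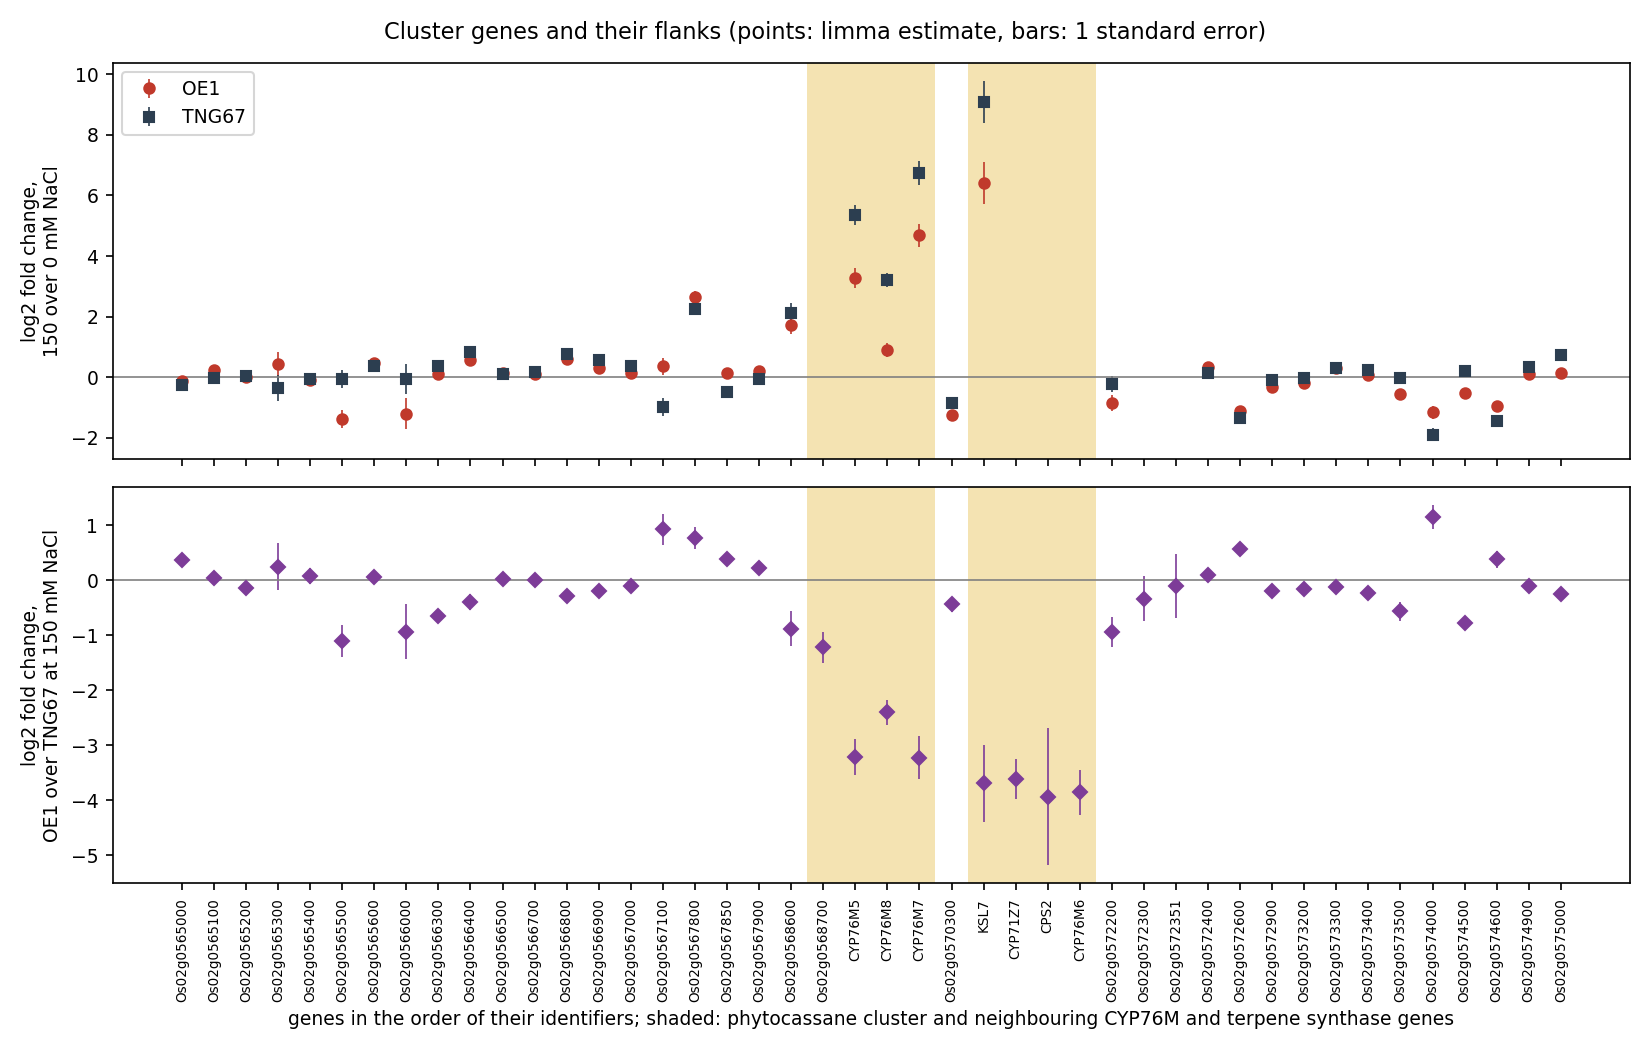
Log2 fold changes (y axes) of the cluster genes and their flanking genes in the order of their identifiers (x axis), for 150 over 0 mM NaCl in OE1 and TNG67 (upper panel) and OE1 over TNG67 at 150 mM NaCl (lower panel). Points are limma estimates and bars are 1 standard error, from 12 libraries or, for genes listed at 150 mM NaCl only, from 6. The shaded genes, which are the cluster members and neighbouring CYP76M and terpene synthase genes, lie below 0 in the lower panel, while most flanking genes lie within 1 log2 unit of 0.

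Genes that supply the precursor form the next list. Geranylgeranyl diphosphate comes from the plastid methylerythritol phosphate (MEP) pathway, and of 12 genes for its steps, 11 were listed at both NaCl levels. Under salt 7 of the 11 were lower in OE1 (3.49% of all tested genes) and 0 were higher by limma, with a median log2 fold change of -1.80. The largest decrease was in Os07g0190000, annotated as a 1-deoxy-D-xylulose 5-phosphate synthase, the entry enzyme of the pathway, with 591 ± 402 in OE1 and 7677 ± 2121 in TNG67 (normalized counts, SD, n = 3 each) and a log2 fold change of -3.86 (limma adjusted p = 0.0015). The reductoisomerase gene DXR (Os01g0106900) had a log2 fold change of -2.60 (limma adjusted p = 0.000267), and a geranylgeranyl diphosphate synthase gene (Os07g0580900), which makes the direct substrate of CPS2, had -2.49 (limma adjusted p = 4.22e-05). The 2 other synthase genes of the entry step, Os05g0408900 and Os06g0142900, had log2 fold changes of 0.33 and 0.08 and were not called. In TNG67 6 of the 11 were higher at 150 than at 0 mM NaCl (9.53% of all tested genes), and in OE1 2 were (6.66%). Without salt 1 of the 11 was lower in OE1 (2.89% of all tested genes), again Os07g0190000, with a log2 fold change of -3.11 (limma adjusted p = 0.00578).

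The momilactone cluster of chromosome 4 is another diterpenoid phytoalexin cluster of rice, and it starts from syn-copalyl diphosphate made by CPS4. Of its 6 genes, 5 were listed at both NaCl levels and all 5 were lower in OE1 at 150 mM NaCl (3.49% of all tested genes), with a median log2 fold change of -3.68, beside a median of -3.23 for the 3 phytocassane members of the same fit. Among them were Os04g0179100 with a log2 fold change of -3.79 (limma adjusted p = 4.95e-05) and the diterpene synthase gene KSL4 (Os04g0179700) with -3.74 (limma adjusted p = 0.0124). The 6-library fit called 4 of the 6 lower, without KSL4 (limma adjusted p = 0.0554) and without Os04g0180400, listed at 150 mM NaCl only (log2 fold change -4.44, limma adjusted p = 0.0673). Without salt 3 of the 5 momilactone genes were lower in OE1 (2.89% of all tested genes), where 0 of 3 phytocassane members were called by limma. The difference between the clusters was not tested. All 6 momilactone genes were also highest in OE1 replicate 3 and in TNG67 replicate 2 among the 150 mM NaCl libraries of their genotype.

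Among 5 diterpenoid genes outside both clusters, 4 were listed at both NaCl levels and 4 of these were lower in OE1 at 150 mM NaCl (3.49% of all tested genes), with a median log2 fold change of -3.90. They included CYP701A9 (Os06g0568600), annotated as an ent-kaurene oxidase, with a log2 fold change of -4.38 (limma adjusted p = 4.87e-06), CYP701A8 (Os06g0569500), annotated as an ent-kaurene oxidase of phytoalexin biosynthesis, with a log2 fold change of -3.98 (limma adjusted p = 0.00213), and KSL10 (Os12g0491800), a diterpene synthase that acts on the product of CPS2, with -3.82 (limma adjusted p = 0.00263). Without salt 2 of these 4 diterpenoid genes were called lower in OE1 by limma (2.89% of all tested genes). CYP701A9 was 1 of them, with a log2 fold change of -4.92 (limma adjusted p = 2.47e-06) on 0 to 3 reads per OE1 library. CYP701A8 and KSL10 were not called without salt. The gibberellin route draws on the same ent-copalyl diphosphate but uses other genes. Of 4 genes of this route 3 were listed, at both NaCl levels, and Os02g0278700 was listed at neither. By limma, edgeR or DESeq2 0 of the 3 were called in any of the comparisons. Over the genotype and salt comparisons limma called between 2.37% and 9.75% of all tested genes in each direction. With 3 genes a count of 0 is near these shares. Between genotypes under salt, 0 of the 3 had an unadjusted limma p under 0.05 over 12 libraries and 1 had over 6, with a median log2 fold change of -0.20. Without salt 1 of the 3 had, Os06g0110000, with a log2 fold change of -0.72 that fell short of the fold threshold (limma adjusted p = 0.043). Between NaCl levels 2 of the 3 had in OE1 and 1 in TNG67. The share of all tested genes under this unadjusted limit is not given here, so these counts do not set the route apart. D35 (Os06g0570100), the ent-kaurene oxidase gene of this route, had 577 ± 49.3 in OE1 and 551 ± 60.0 in TNG67 at 150 mM NaCl (normalized counts, SD, n = 3 each).

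**Figure D4:**
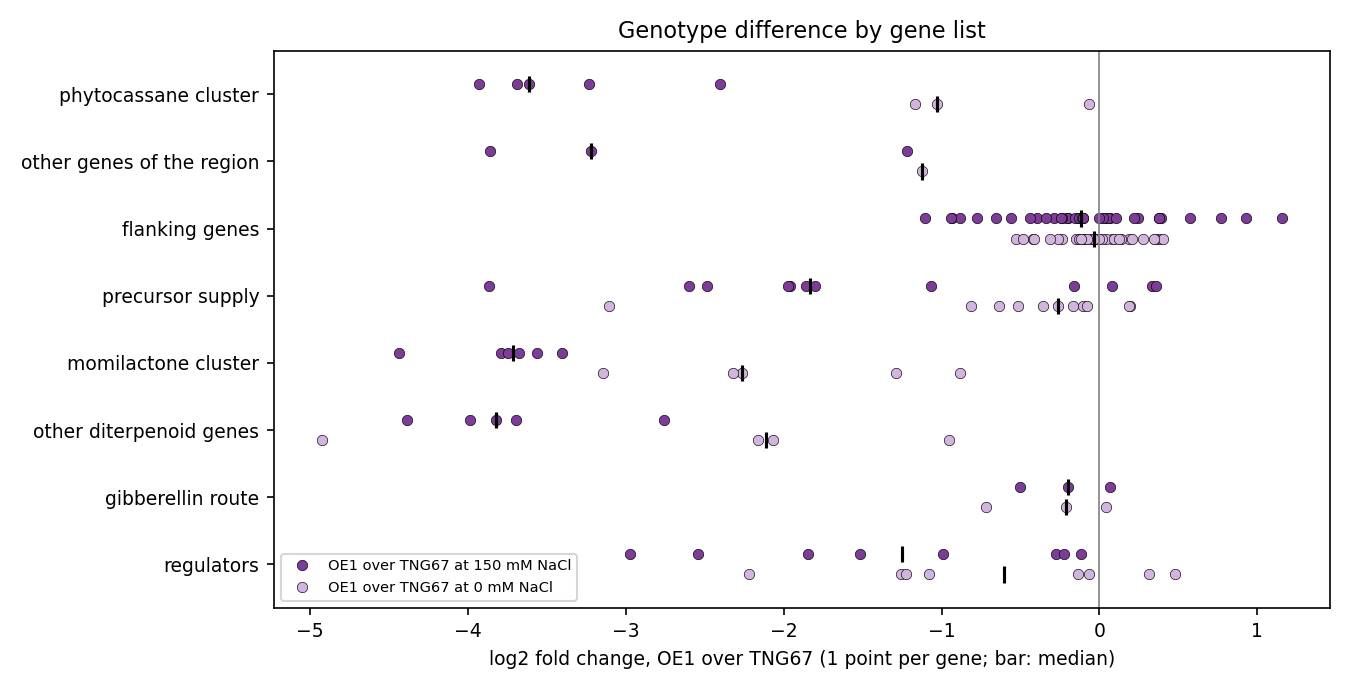
Log2 fold change of OE1 over TNG67 (x axis) for each gene of 8 lists (y axis), at 150 mM NaCl (dark points) and 0 mM NaCl (light points), with the median of each list as a vertical bar. Genes listed at 150 mM NaCl only come from the 6-library fit, and the phytocassane, momilactone and other diterpenoid genes lie left of the flanking and gibberellin genes at 150 mM NaCl.

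Regulators known from rice phytoalexin work were the last list. Of 8 transcription factor genes, all tested, 4 were lower in OE1 at 150 mM NaCl and 4 at 0 mM NaCl, beside 3.49% and 2.89% of all tested genes. Os01g0196300, a basic helix-loop-helix gene annotated as a diterpenoid phytoalexin factor, had 212 ± 51.5 in OE1 and 750 ± 36.3 in TNG67 at 150 mM NaCl, and 80.5 ± 14.3 in OE1 and 193 ± 18.1 in TNG67 at 0 mM NaCl (normalized counts, SD, n = 3 each). Its log2 fold changes were -1.84 at 150 mM NaCl (limma adjusted p = 1.62e-07) and -1.26 at 0 mM NaCl (limma adjusted p = 1.61e-05). The annotated repressors WRKY76 (Os09g0417600) and WRKY62 (Os09g0417800) were lower in OE1 as well. WRKY76 had a log2 fold change of -2.97 at 150 mM NaCl and of -2.22 at 0 mM NaCl, and WRKY62 had -2.54 with salt and -1.22 without. The other regulator called lower at both NaCl levels was Os05g0322900, a WRKY gene annotated for blast resistance. It had -1.52 with salt and -1.08 without. The TGA-type bZIP gene TGAL6 (Os04g0637000), annotated as a regulator of diterpenoid phytoalexin production, was not called between genotypes at either NaCl level. Its log2 fold change was -0.12 in salt-treated roots (limma adjusted p = 0.302). In unstressed roots it was 0.48 (limma adjusted p = 0.000276), which missed the fold threshold only. Its interaction was called (-0.59, limma adjusted p = 0.0027). In that direction 4 of the 8 regulators were called, beside 6.17% of all tested genes.

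The genes whose pattern was most like the cluster were sought over all 12 libraries with a profile made from the 3 members listed at both NaCl levels. Across 22186 other genes with a mean of at least 20, the highest Pearson's r was 0.997 for Os07g0522500, annotated as a PDR6-like ABC transporter, and 0.997 for CYP701A8 (Os06g0569500). Next came Os01g0723600, a phosphoribosyl pyrophosphate synthetase gene, with r = 0.995, Os04g0104900, annotated as an O-methyltransferase, with r = 0.995, and Os09g0572700, annotated as a blue copper-binding protein, with r = 0.993. The libraries fall into 4 groups that set most of this likeness, so these values describe a shared pattern over groups. Os07g0522500 had 1694 ± 631 in OE1 and 6028 ± 1135 in TNG67 at 150 mM NaCl, and 396 ± 78.1 in OE1 and 451 ± 10.1 in TNG67 at 0 mM NaCl (normalized counts, SD, n = 3 each).

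The members themselves were set against the profile of the other 2 in the same way. CYP76M7 had r = 0.981 and ranked 41 of 22187 genes, KSL7 had r = 0.973 and ranked 139, and CYP76M8 had r = 0.935 and ranked 1172. CYP76M5, the neighbour outside the named cluster, had r = 0.989 with the profile of the 3 members and ranked 19 of 22186. Against the profile of CYP76M7 and KSL7, the one used for CYP76M8, CYP76M5 had r = 0.981 and ranked 131 of 22187 genes. On that profile CYP76M8 thus ranked below CYP76M5 and many genes outside the cluster, and these differences in r were not tested.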

How the data were processed

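The authors called bases with CASAVA, trimmed reads with Trimmomatic 0.38, aligned them with HISAT2 2.1.0 to IRGSP-1.0, counted them on genes and deposited signal values, which are counts scaled by the size factor of each library. The counting tool, the normalization and the filter behind the listed genes are not given in the sources used here. Columns of per-sample values left unused numbered 0, and the authors' group means were not used.

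Every value was a whole multiple of 1 read within 0.001 reads. For 3 OE1 libraries (replicate 2 without salt and replicates 1 and 2 under salt) 1 read was worth close to 1, and recovery there rests on that test alone. Median-ratio factors computed across the 12 libraries were within 0.132% of the factors recovered from the deposited values. Those computed within a table were 5.94% or more away, so both tables were treated as on 1 scale. The 24922 genes of both tables were fitted, without 658 genes of the 0 mM table alone and 1031 of the 150 mM table alone.

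Tests used limma 3.58.1 in R 4.3.3 on log2(value + 1) with 4 group means, a trend and robust moderation. The fit was also run on simulated counts with the same dispersion in every group, where only genes with a mean of at least 20 were changed. That run does not cover genes with a wide spread in 1 group or few reads, such as CPS2 and KSL7. A fold change on this scale understates the change of low genes. Limma p-values rest on the spread between the 3 replicates of a group, pooled over all groups in the fit and moderated across genes. In the fit with 4 group means, a comparison without salt therefore also carries the spread of the salt-treated groups. Alternatives were edgeR 4.0.16 with TMM or library size factors, DESeq2 1.42.0, a pseudocount of 0.1, a mean of at least 20, 6-library fits, a replicate block and each library left out. Alternatives to the 6-library fit at 150 mM NaCl were chosen after seeing the data.

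Named genes were all members, the 5 genes most like them, and up to 4 genes of each list with the largest change, beside a few named for their role. Os02g0570300, the synthase genes not called, D35 and TGAL6 were named after their values were seen. The members and lists were chosen with earlier results of these data known. The names of the 6 members came with their identifiers. Other names came from the files and from the RefSeq gene table of another assembly, which matched 5 of the 6 members. The entry matched to CYP76M7 listed no synonym, so it does not bear on that name.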

Additional observations from a re-analysis of the deposited data

Results flagged for a closer look

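The OE1 effect on CYP76M8 differed between NaCl levels by the interaction test, with a value of -2.33 on the log2 scale (limma adjusted p = 0.00102). OE1 was below TNG67 in 3 of 3 libraries at 150 mM NaCl, while the genotypes overlapped at 0 mM NaCl.

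The interaction was also called for CYP76M7, at -2.06 in log2 units (limma adjusted p = 0.0429) and OE1 below TNG67 in 3 of 3 libraries at both levels. This call was lost with edgeR on recovered reads (adjusted p = 0.256) and in 9 of the 12 fits that each left out 1 library, where the adjusted p reached 0.108.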

How the results depend on the processing

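The 3 members listed at both NaCl levels were lower in OE1 at 150 mM NaCl and higher at 150 than at 0 mM NaCl in TNG67 under every alternative to the 12-library fit. Of the 3, KSL7 alone lost its call at 150 mM NaCl in the alternatives to the 6-library fit, with adjusted p = 0.0583 in edgeR and 0.131 with the replicate block, and adjusted p between 0.00905 and 0.12 over the fits that left out 1 library. At 0 mM NaCl the number of members called lower in OE1 was 0, and it was 1 (CYP76M7) in limma on 6 libraries and 1 with the replicate block (limma adjusted p = 0.0446), with a range of 0 to 1 over the fits that left out 1 library. The interaction was called for 2 members, and for 1 with edgeR under TMM and 1 under library size alone (CYP76M7 adjusted p = 0.258), with a range of 1 to 3 over the fits that left out 1 library. Of these fits 9 lost CYP76M7, and only those without OE1 at 0 mM NaCl replicate 2, OE1 at 150 mM NaCl replicate 3 or TNG67 at 150 mM NaCl replicate 1 did not. The log2 fold change of CYP76M8 at 0 mM NaCl ranged from -0.20 to 0.0148 over the fits that left out 1 library and changed sign, to 0.0148 without OE1 at 0 mM NaCl replicate 2 and to 0.0049 without TNG67 at 0 mM NaCl replicate 2, neither being called. The number of members called higher at 150 mM NaCl in OE1 ranged from 2 to 3 over the same fits. The 6-library fit called 4 of 5 members lower in OE1, with a range of 3 to 5 over the other settings. The cause of these changes was not tested.

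Replicate numbers did not pair the libraries: over 18 same-numbered pairs the correlation of deviations was between -0.155 and 0.0462, and 0 pairs were over 0.1. In the 6-library fit the replicate block left 3 of 5 members called. Among the members listed at both NaCl levels, depth limits KSL7, since its unstressed libraries held 3 to 20 reads each.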
